A study of Rattus norvegicus with 45 samples.

Results

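The genes described here are those of blood coagulation, of the complement system and of the serpin family, taken from a time course of acetaminophen (APAP) injury in rat liver. Members were matched by gene symbol, and 74 of the 13877 genes on the array table matched. The matching used no expression value, but the set was chosen with earlier results of these data known. They comprised 3 fibrinogen chains, 7 other coagulation factors (F2, F5, F8, F9, F10, F12 and F13a1), 21 complement genes, 32 serpins and 11 genes that carry a C1q-related name but lie outside the C1 complex. F7, F11, F13b, C4a and C4b were not on the table used and were not analysed here. All 74 matched a gene of the RefSeq annotation of the rat genome (build GRCr8) under the same symbol.

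The animals were male Sprague-Dawley rats, 5 weeks old and fasted for 16 h before dosing. Liver RNA was hybridised to Affymetrix Rat Genome 230 2.0 arrays, with 5 animals in each of 9 groups and 45 arrays in all. One group was untreated and killed at 0 h (baseline), 4 groups received vehicle (1% hydroxyethylcellulose) by mouth and were killed at 3, 6, 9 or 24 h, and 4 groups received APAP at 1000 mg/kg in that vehicle and were killed at the same times. All groups shared the fast before dosing, so baseline is a fasted liver and not a fed one. Values are log2 intensities, and a difference of 1 is a doubling. The words rise and fall are kept for changes of 1.5-fold or more (0.585 on the log2 scale) with an adjusted p below 0.05, also called passing, and changes are given ± SE with n = 5 animals per group.

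Hepatocytes make most of the clotting factors, complement components and protease inhibitors of plasma. Coagulation ends in thrombin, which turns fibrinogen into fibrin. Complement starts from C1, lectins or C3 itself and ends in a membrane attack complex built from C5 to C9. Serpins are inhibitors that trap a protease by a change of shape, and they hold both cascades in check, although some members have become hormone carriers or chaperones. The hepatocyte marker list (Alb, Apoa1, Ttr, Tf, Tat and Cps1) had a mean log2 intensity of 13.67 to 14.21 across the 45 animals, and 5 of its 6 genes did not pass in any APAP against vehicle comparison. The exception was Tat, which was higher at 3, 6 and 9 h (2.06, 2.11 and 0.94) and is part of that mean. Of all genes at an intensity of 13 or more, 8.62% passed at 9 h, against 17.1% of all 13877. A limit of the signal in that range was not tested. The liver is a mix of cells, and in whole tissue fewer cells of a type and less RNA per cell cannot be told apart.

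A small set of these genes was lower with APAP and 1 was higher, when compared with vehicle of the same time. At 3 h, 3 of the 74 members passed (4.05%, against 6.32% of all 13877 genes), with 1 higher (3.34% of all genes) and 2 lower (2.98%). At 6 h, 9 passed (12.2%, against 14.1% of all genes), and all were lower, where 7.06% of all genes were higher and 7.04% lower. At 9 h, 13 passed (17.6%, against 17.1%), with 1 higher and 12 lower, where 8.65% of all genes were higher and 8.47% lower. At 24 h, 4 passed (5.41%, against 3.4%), and all were lower, where 1.56% of all genes were higher and 1.84% lower. The share of members that passed thus lay near that of all genes at 6 and 9 h, below it at 3 h and above it at 24 h. Most of those that passed were lower. Cyclic loess normalisation gave 3 higher and 10 lower at 9 h. At an adjusted p below 0.05 with no fold threshold, 10, 32, 41 and 20 of the 74 members differed at the 4 times. Of all genes 27.6%, 42.8%, 46.3% and 11% did. Groups of APAP and vehicle animals did not overlap for 9, 23, 29 and 20 of the 74 members, and for 20.2%, 33.1%, 35% and 10.1% of all genes. By both measures the share of members was below that of all genes at 3 h and above it at 24 h. The complement genes held 8 of the 12 falls at 9 h, with 8 of 21 lower and 0 higher at 9 h and a median change of -0.29 against -0.03 for all genes. Among the coagulation genes 0 of 10 passed in limma at 3, 6 or 9 h, where 1, 3 and 4 had an unadjusted p below 0.05, and the median at 9 h was 0.00. Here and below, counts at an unadjusted p in limma lack the share of all genes at that cut. That share is at least the one given above for an adjusted p, so these counts are not read as a result about the lists. Of the 32 serpins 1 rose and 4 fell at 9 h, with a median of -0.09.

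**Figure D1:**
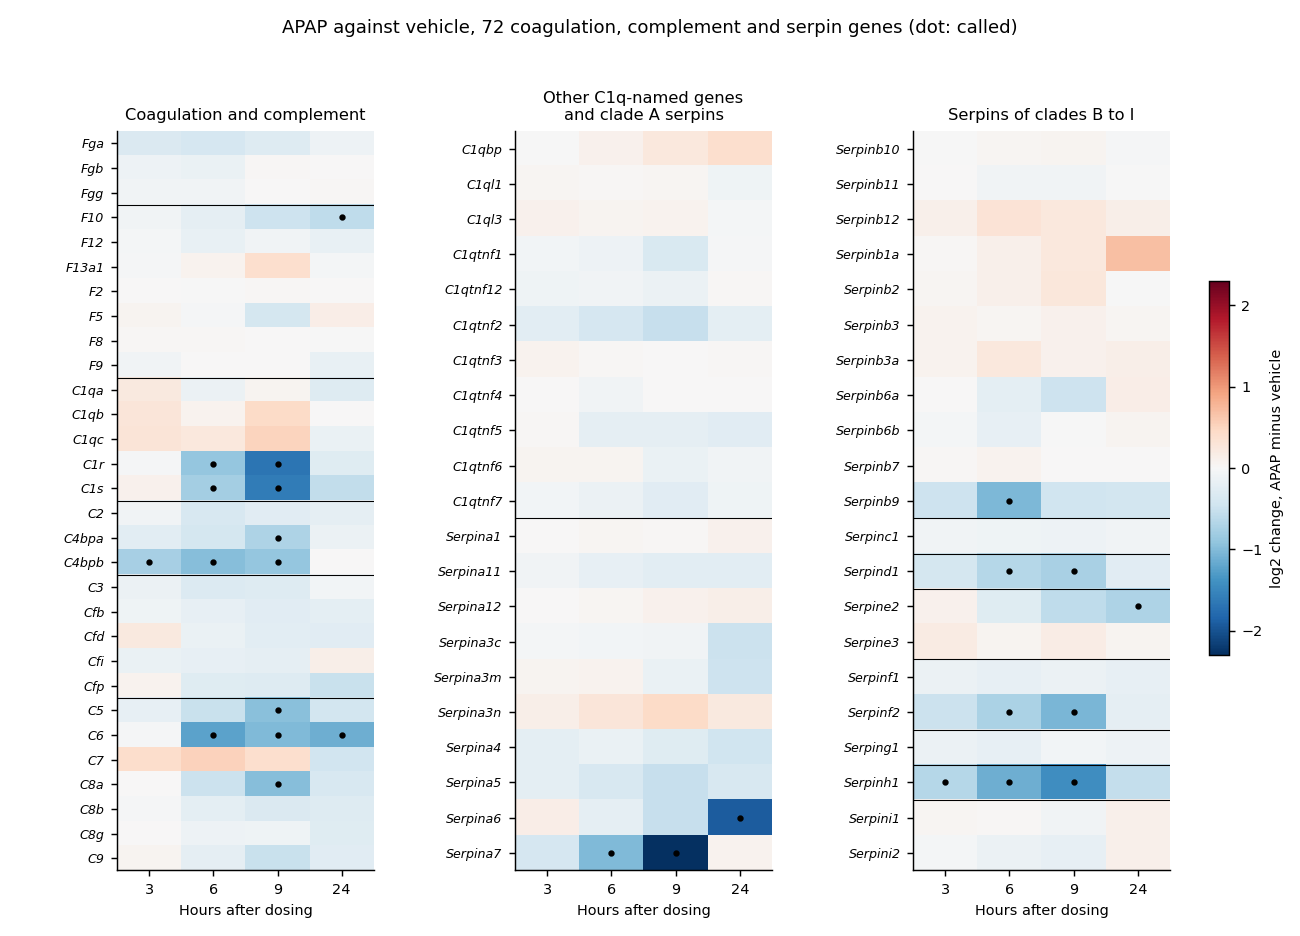
Heat map of the log2 change, APAP minus vehicle, for 72 of the 74 genes (rows, grouped by role) at 3, 6, 9 and 24 h (columns, not spaced to scale). Blue is lower and red higher with APAP, and a black dot marks a change that passed the test. Dots gather at 6 and 9 h in C1r, C1s, the C4b-binding protein chains, C5, C6, C8a and serpins of several clades.

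Of the 12 members that were lower at 9 h, 9 had a RefSeq promoter sequence (250 bases before to 50 after 1 annotated start), as had 55 of all 74 members. The 150 bases before that start are shown for 6 of them, as sequences next to the starts of genes that were low at the same time, with motif letters in capitals. RefSeq can list several starts for a gene, and the start used lies 201 bases inside the annotated span of Serpinh1 and 53277 bases inside that of Serpina7, so these 2 stretches are not upstream of the whole gene.
Serpinh1 (chr1:163062977-163063126, GRCr8, minus strand): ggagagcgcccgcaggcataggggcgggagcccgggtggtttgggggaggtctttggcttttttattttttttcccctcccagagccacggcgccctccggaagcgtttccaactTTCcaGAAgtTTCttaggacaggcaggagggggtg
C1r (chr4:159098863-159099012, GRCr8, plus strand): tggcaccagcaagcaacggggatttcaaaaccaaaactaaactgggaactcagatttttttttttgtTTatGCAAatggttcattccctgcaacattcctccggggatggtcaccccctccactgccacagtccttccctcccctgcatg
C8a (chr5:124866632-124866781, GRCr8, minus strand): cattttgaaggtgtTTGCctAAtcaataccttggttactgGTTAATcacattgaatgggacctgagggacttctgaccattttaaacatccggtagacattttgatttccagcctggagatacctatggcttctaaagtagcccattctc
C5 (chr3:38759469-38759618, GRCr8, minus strand): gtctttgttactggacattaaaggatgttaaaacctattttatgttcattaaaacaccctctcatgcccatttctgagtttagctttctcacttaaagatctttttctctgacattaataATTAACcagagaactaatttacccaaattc
C4bpb (chr13:44683782-44683931, GRCr8, minus strand): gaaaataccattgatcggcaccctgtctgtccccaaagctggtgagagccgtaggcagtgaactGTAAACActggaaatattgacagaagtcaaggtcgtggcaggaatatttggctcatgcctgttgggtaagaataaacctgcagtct
Serpina7 (chrX:107457682-107457831, GRCr8, minus strand): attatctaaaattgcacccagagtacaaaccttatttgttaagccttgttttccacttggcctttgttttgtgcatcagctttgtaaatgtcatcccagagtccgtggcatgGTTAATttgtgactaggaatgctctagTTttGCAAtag

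Capitals mark a heat shock element (3 inverted repeats of GAA) in Serpinh1, a C/EBP motif (TTGCNNAA) in C1r, C8a and Serpina7, part of an HNF1 site (GTTAAT) in C8a, C5 and Serpina7, and a FOXA motif (TGTTTAC) in C4bpb. Both strands were searched, N positions stay in lower case, and no 2 marked matches overlap. Over the whole 300 bases, the C/EBP letters were in 5 of the 9 promoters of genes low at 9 h, in 16 of the 55 member promoters (29.1%) and in 10.5% of all 27457 promoters. Those 27457 are not limited to the genes of the array table. The HNF1 letters were in 5 of the 9, in 16.4% of member promoters and in 7.37% of all. They were searched after the full HNF1 palindrome had matched 0 members and 1 promoter in all. The FOXA letters were in 2 of the 9 and 3.76% of all, a STAT motif (TTCNNNGAA) in 2 and 8.68%, and a TATA box (TATAAA) in 2 and 14.3%. Among member promoters these 3 were in 7.27%, 16.4% and 16.4%. The heat shock element was in 1 member promoter, that of Serpinh1, and in 0.736% of all. An HNF4 motif (CAAAGTCCA) was in 0 members and 0.375% of all. A CCAAT box was in 0 of the 9, in 27.3% of member promoters and in 37.7% of all. These are letter matches in a short window, with motifs chosen when the changes were known, and say nothing of binding.

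Fibrinogen, prothrombin, F9 and F12 stayed within 1.5-fold of vehicle. Fga, Fgb and Fgg encode the 3 chains of fibrinogen. Fgb lay at 0.03 ± 0.06 and Fgg at 0.01 ± 0.05 at 9 h, with Fga at -0.29 ± 0.13 (adjusted p = 0.078) and, at 3 h, at -0.34 ± 0.08 (adjusted p = 0.0049). Their largest changes against vehicle were -0.39 ± 0.16 for Fga at 6 h (adjusted p = 0.069), -0.15 ± 0.10 for Fgb at 6 h and -0.08 ± 0.06 for Fgg at 6 h. F2, which encodes prothrombin, differed from vehicle by between -0.01 and 0.02 at the 4 times. F9, the protease deficient in haemophilia B, differed by -0.07 ± 0.05, 0.01 ± 0.04, 0.00 ± 0.05 and -0.16 ± 0.09 at 3, 6, 9 and 24 h. F12, which starts the contact pathway, lay at -0.05 ± 0.04, -0.17 ± 0.05, -0.08 ± 0.05 and -0.17 ± 0.06.

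F10 and F5 were the coagulation genes with the clearest changes, and they encode the protease and the cofactor that together make thrombin from prothrombin. F10 was at -0.07 ± 0.05, -0.21 ± 0.05 and -0.48 ± 0.06 at 3, 6 and 9 h, and fell by 0.59 ± 0.08 at 24 h (adjusted p = 0.00076). The F10 values at 24 h were 12.41, 12.49, 12.48, 12.56 and 12.50 with vehicle and 11.70, 11.89, 11.90, 11.82 and 12.18 with APAP. Every APAP animal was below every vehicle animal. The change sits at the fold threshold, and the call was lost without animal 1 or 4 of the APAP group or animal 4 of the vehicle group, where it was -0.54 to -0.57. F5 was at -0.40 ± 0.07 at 9 h (adjusted p = 0.00027), under the fold threshold, and at 0.14 ± 0.07 at 24 h. Against baseline F5 had fallen in both arms at 24 h, by 0.83 ± 0.07 with vehicle and by 0.68 ± 0.06 with APAP. It had reached -0.84 ± 0.06 with APAP at 9 h, when vehicle was at -0.43. Its 5 baseline values ran from 11.73 to 11.92, and its values at 24 h ran from 10.87 to 11.16 with vehicle and from 11.05 to 11.24 with APAP, so the 24 h arms overlapped and both were below baseline.

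The C1 complex split by subunit. C1r and C1s, the 2 proteases of C1 that neighbour each other on chromosome 4, fell together at 6 and 9 h, while C1qa, C1qb and C1qc, the recognition subunits that macrophages make, did not pass at any time. At 9 h the C1r values were 11.94, 12.49, 12.72, 12.79 and 12.46 with vehicle and 11.19, 10.31, 10.87, 10.90 and 10.68 with APAP. The C1s values were 12.33, 12.61, 12.69, 12.74 and 12.54 with vehicle and 11.43, 10.39, 11.12, 11.01 and 10.93 with APAP. For both genes all 5 APAP animals were below all 5 vehicle animals, and animal 2 of the APAP group was the lowest in each. C1r fell by 0.89 ± 0.12 at 6 h (adjusted p = 5.6e-05) and by 1.69 ± 0.18 at 9 h (9e-06), a 3.22-fold difference. C1s fell by 0.79 ± 0.11 at 6 h and by 1.61 ± 0.16 at 9 h (5.6e-06), a 3.04-fold difference.

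At 3 h neither protease had moved, with -0.02 ± 0.14 for C1r and 0.11 ± 0.11 for C1s. By 24 h C1r was at -0.27, with values of 11.90 to 12.39 on vehicle and 11.48 to 12.27 on APAP, and C1s was at -0.57, just short of 1.5-fold, with 12.60 to 12.85 on vehicle and 11.73 to 12.42 on APAP. The APAP effect differed between neighbouring times for both. The effect at 6 h minus that at 3 h was -0.87 for C1r and -0.89 for C1s, the next step to 9 h was -0.80 and -0.82, and the step from 9 to 24 h was 1.42 and 1.04 (adjusted p from 0.00017 to 0.032). The step from 6 to 9 h in C1r was the least firm, since leaving out any 1 of 9 of the 20 animals took its adjusted p to 0.0503 to 0.0617. C1qb and C1qc stood at 0.44 ± 0.13 and 0.51 ± 0.14 at 9 h, both under 1.5-fold, and C1qa at 0.06 ± 0.12. The difference between the proteases and the C1q chains was not tested. Of 5 measured macrophage markers at 9 h, 1 was higher (Cd163) and 1 lower (Adgre1), and the mean of the list ran from 8.55 to 9.15 on vehicle and from 8.63 to 8.99 on APAP.

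**Figure D2:**
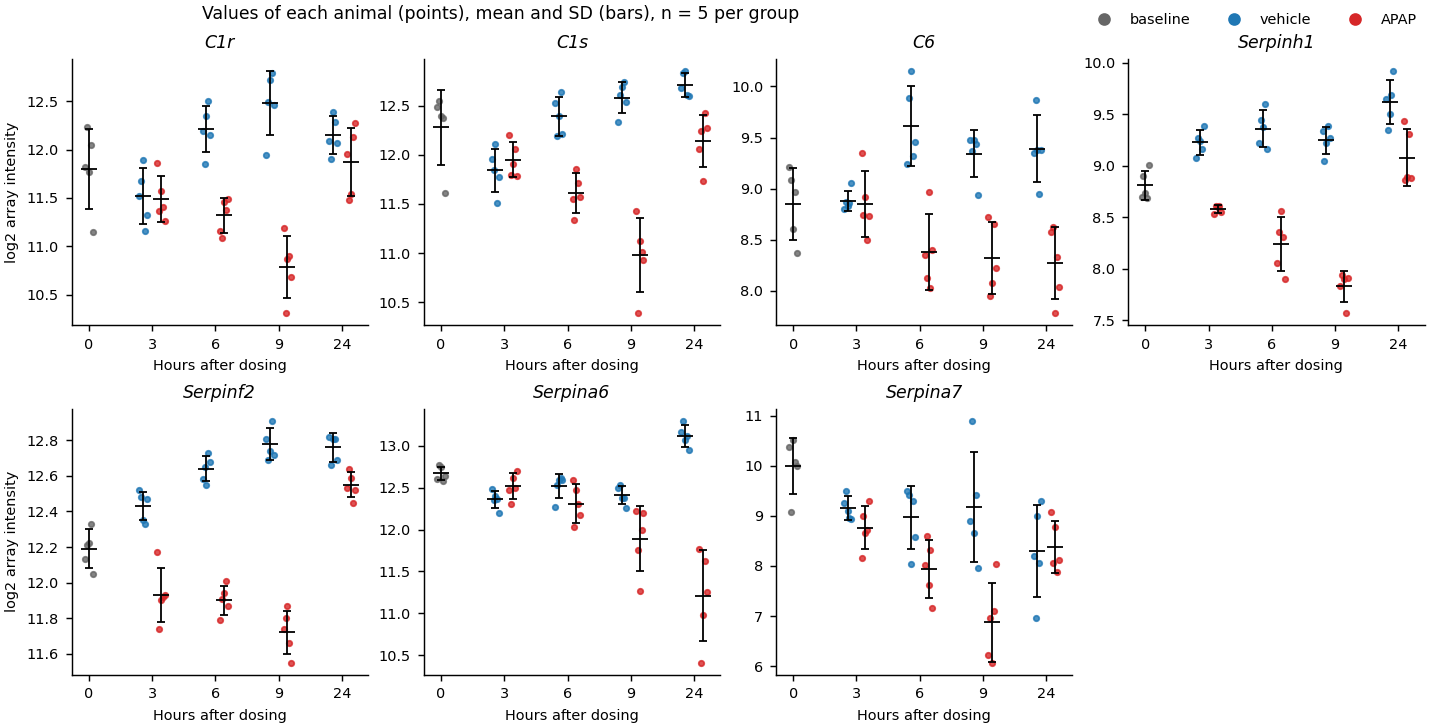
Log2 array intensity (y axis, a separate scale in each panel) of 7 genes in every animal at 0, 3, 6, 9 and 24 h (x axis, not spaced to scale). Points are animals, grey for baseline, blue for vehicle and red for APAP, and black bars are the mean and SD of 5 animals. C1r and C1s part at 6 and 9 h, and at 24 h the groups overlap for C1r and not for C1s. C6 stays apart from 6 h on, and Serpina6 parts at 24 h.

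C4b-binding protein is a plasma inhibitor of the C3 convertase of the classical pathway, and its beta chain passed at an earlier time than its alpha chain. That order rests on the fold threshold, and the difference between the chains was not tested. C4bpb, the beta chain, fell by 0.77 ± 0.08 at 3 h, 0.97 ± 0.08 at 6 h and 0.88 ± 0.07 at 9 h, and was at 0.01 at 24 h. Its values at 6 h were 12.83, 12.97, 12.54, 12.77 and 12.82 with vehicle and 11.74, 11.90, 11.68, 11.80 and 11.96 with APAP, with no overlap. C4bpa, the alpha chain, also on chromosome 13, passed at 9 h (-0.70 ± 0.09) and was at -0.25, -0.40 and -0.14 at 3, 6 and 24 h. Its 9 h change was -0.51 under cyclic loess normalisation, below 1.5-fold. Against baseline, the vehicle arm of C4bpb was at 0.53 at 6 h and 0.57 at 9 h, and the APAP arm at -0.44 and -0.32, none of which passed. C2, the protease of that convertase, was at -0.36 and -0.27 at 6 and 9 h and did not pass.

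C3, the central component, and Cfb, Cfd, Cfi and Cfp of the alternative pathway changed little. C3 was at -0.14 ± 0.05, -0.32 ± 0.05, -0.29 ± 0.05 and -0.06 ± 0.05 at the 4 times, and Cfb, the protease of the alternative convertase, at -0.09 ± 0.06, -0.18 ± 0.06, -0.26 ± 0.05 and -0.23 ± 0.05. Both had an adjusted p below 0.05 at 6 and 9 h, with the largest change at 1.25-fold. Cfd, Cfi and Cfp did not pass against vehicle at any time, and Cfp fell against baseline at 24 h (-0.59 ± 0.14), a call that was lost without any 1 of 5 animals.

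Of the components that form the membrane attack complex, C5, C6 and C8a fell at 9 h. C5, whose cleavage starts the complex, fell by 0.96 ± 0.13 at 9 h (adjusted p = 7.7e-05), after -0.51 ± 0.09 at 6 h. Its 9 h values ran from 11.63 to 12.35 (median 11.85) with vehicle and from 10.70 to 11.15 (median 10.91) with APAP. C8a fell by 0.99 ± 0.07 at 9 h (7e-07), with values of 11.79 to 12.01 on vehicle and 10.73 to 11.14 on APAP. The other 2 chains of C8 did not pass, with C8b at -0.32 and C8g at -0.11. C9, the subunit that lines the pore, was at -0.52 ± 0.07, with no overlap between groups but under 1.5-fold. Against baseline C5 and C8a with APAP were at -0.83 and -0.94 at 9 h, both of which passed, and vehicle was at 0.13 and 0.04. By 24 h they were at -0.42 and -0.38 against vehicle, and C5 passed there (-0.65) when arrays were centred on ribosomal protein genes. The effect at 24 h exceeded that at 9 h by 0.61 for C8a (adjusted p = 0.00056), which dropped below 1.5-fold without any 1 of 3 animals (0.56 to 0.58) and under cyclic loess normalisation (0.39), and the corresponding difference for C5, 0.55, did not pass.

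C6 was low at 6, 9 and 24 h, and its difference from the other components of the complex was not tested. The C6 values were 9.24, 9.89, 10.15, 9.32 and 9.46 with vehicle and 8.35, 8.12, 8.97, 8.03 and 8.40 with APAP at 6 h. At 24 h they were 9.35, 9.87, 9.38, 8.95 and 9.38 with vehicle and 8.57, 8.62, 7.78, 8.33 and 8.04 with APAP. The groups did not overlap at 6, 9 or 24 h. C6 fell by 1.24 ± 0.20, 1.02 ± 0.16 and 1.12 ± 0.18 at those times (adjusted p = 0.00026, 0.00022 and 0.0021), after -0.03 ± 0.13 at 3 h. The change from 3 to 6 h passed (-1.20), and the later ones were 0.21 and -0.10. Vehicle animals had more C6 than baseline, by 0.77 ± 0.20 at 6 h (adjusted p = 0.011), 0.49 at 9 h and 0.54 at 24 h. Against baseline the APAP arm was at -0.47, -0.53 and -0.58 at 6, 9 and 24 h, and none of these passed.

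C7, the next subunit, moved with time in the vehicle animals. It fell against baseline by 0.68 ± 0.10 at 3 h, 0.75 ± 0.13 at 6 h, 0.78 ± 0.17 at 9 h and 0.86 ± 0.17 at 24 h. The baseline values were 7.63 to 8.11, and vehicle animals lay at 7.07 to 7.47 at 3 h and at 6.52 to 7.67 at 24 h. With APAP it was 0.41, 0.52 and 0.38 above vehicle at 3, 6 and 9 h and was at -0.43 against vehicle at 24 h, none of which passed. The difference between the effects at 24 and 9 h did pass (-0.82, adjusted p = 0.022), and against baseline C7 fell by 1.29 ± 0.11 with APAP at 24 h.

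**Figure D3:**
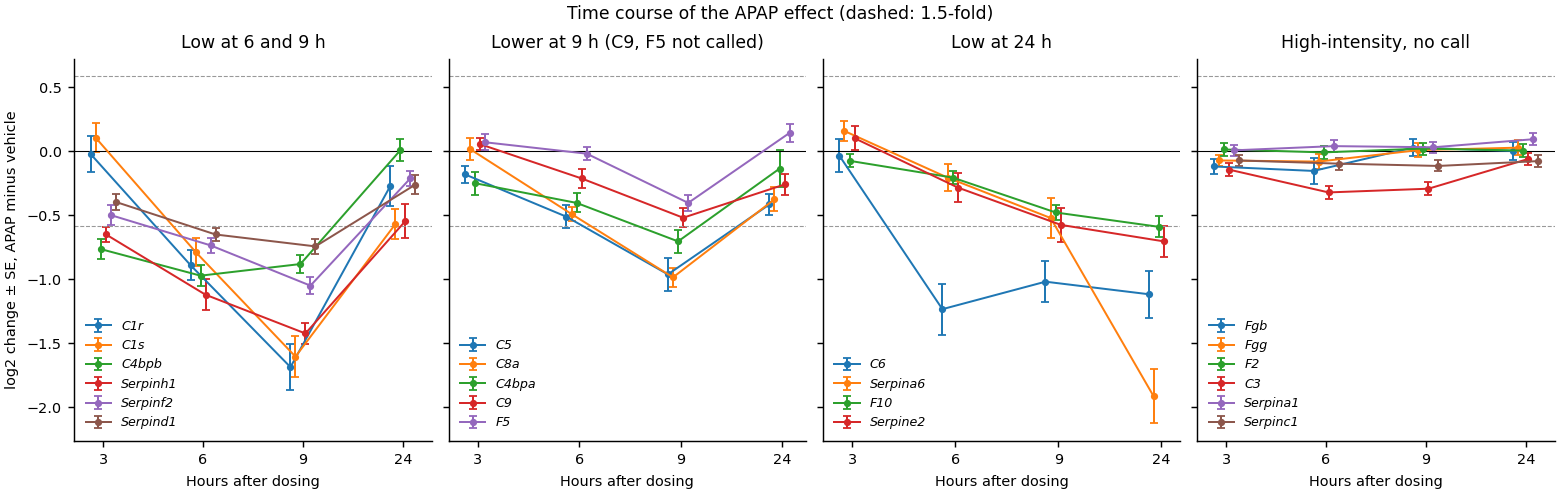
Log2 change, APAP minus vehicle, with its SE (y axis) at 3, 6, 9 and 24 h (x axis, not spaced to scale) for 4 sets of genes, with dashed lines at 1.5-fold. The first set reaches -0.74 to -1.69 at 9 h and lies between -0.57 and 0.01 at 24 h. C6, Serpina6, F10 and Serpine2 are below -0.58 at 24 h, and the last set stays between -0.32 and 0.09.

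Serpinf2 and Serpind1, 2 plasma inhibitors of hepatocyte origin, fell in near step. Serpinf2 encodes alpha-2-antiplasmin, the inhibitor of plasmin, and Serpind1 encodes heparin cofactor II, an inhibitor of thrombin. The Serpinf2 values at 9 h were 12.81, 12.69, 12.74, 12.91 and 12.72 with vehicle and 11.74, 11.80, 11.87, 11.66 and 11.55 with APAP. The narrow spread (SD 0.09 and 0.12) left a wide gap between the groups. Serpinf2 was at -0.50 ± 0.07 at 3 h, fell by 0.74 ± 0.06 at 6 h and 1.05 ± 0.07 at 9 h (adjusted p = 2.1e-07), and was at -0.21 ± 0.06 at 24 h. Serpind1 was at -0.40 ± 0.06, fell by 0.65 ± 0.05 and 0.74 ± 0.06 at 6 and 9 h, and was at -0.26 ± 0.07 at 24 h. Under cyclic loess normalisation the 6 h changes were -0.56 and -0.47 and the Serpind1 change at 9 h was -0.55, all below 1.5-fold, with adjusted p of 8.1e-06, 7.9e-06 and 9.8e-06. For Serpinf2 the vehicle arm had risen over baseline, by 0.59 ± 0.06 at 9 h, and the APAP arm was at -0.46, which did not pass. That vehicle rise was lost, at 0.55 to 0.58, without any 1 of 4 animals.

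Serpinh1, a serpin that inhibits no protease and serves as the collagen chaperone Hsp47, fell from the first time point. The values at 3 h were 9.08, 9.27, 9.24, 9.16 and 9.39 with vehicle and 8.53, 8.61, 8.60, 8.61 and 8.55 with APAP. At 9 h they were 9.34, 9.05, 9.22, 9.39 and 9.27 with vehicle and 7.83, 7.94, 7.90, 7.57 and 7.91 with APAP. The groups were far apart at both times. Serpinh1 fell by 0.65 ± 0.06 at 3 h, 1.12 ± 0.12 at 6 h and 1.43 ± 0.09 at 9 h (adjusted p = 9.1e-08), and was at -0.55 ± 0.14 at 24 h. The effect at 24 h was 0.88 above that at 9 h (adjusted p = 0.00037). Its vehicle arm stood above baseline throughout and had risen by 0.81 ± 0.10 at 24 h, and its APAP arm had fallen by 0.98 ± 0.09 at 9 h. Of 7 stellate cell and fibroblast markers at 9 h, 1 was lower (Lrat, -2.56) and 1 higher (Dcn, 0.66). The mean of that list ran from 8.34 to 8.60 with vehicle and from 7.89 to 8.13 with APAP, and its part in the Serpinh1 change was not tested.

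Serpina6 and Serpina7, the 2 hormone carriers of the family, followed other courses. Serpina6 encodes the corticosteroid-binding globulin. Its values at 24 h were 13.17, 13.30, 13.07, 13.12 and 12.95 with vehicle and 11.77, 10.41, 10.98, 11.62 and 11.25 with APAP. It fell by 1.92 ± 0.21 (adjusted p = 0.00016), a 3.78-fold difference and the largest fall among members at that time. At 3, 6 and 9 h it was at 0.16, -0.21 and -0.52, and the effect at 24 h minus that at 9 h was -1.40 (adjusted p = 0.00059). Against baseline it had fallen by 0.78 ± 0.15 at 9 h and 1.46 ± 0.21 at 24 h with APAP, and vehicle was at 0.46 at 24 h.

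Serpina7 encodes the thyroxine-binding globulin and is the only clade A serpin measured that lies on chromosome X, the other 9 being on chromosome 6. It had the largest change of any member and a wide spread between animals (SD 0.79 with APAP at 9 h, and wider still with vehicle). Because its groups overlapped, its values were chosen for print after they were seen. At baseline they were 10.38, 9.07, 10.51, 10.07 and 9.99. At 9 h they were 8.90, 10.90, 8.66, 9.42 and 7.95 with vehicle and 6.23, 6.97, 6.07, 7.11 and 8.03 with APAP, so that 1 APAP animal lay above 1 vehicle animal. Against vehicle, Serpina7 fell at 6 h (-1.02 ± 0.31) and 9 h (-2.28 ± 0.50, adjusted p = 0.018 and 0.0026). At 24 h it was at 0.07 ± 0.39, and vehicle had by then fallen by 1.70 ± 0.40 from baseline. Against baseline the APAP arm fell by 1.24 ± 0.26, 2.06 ± 0.29, 3.12 ± 0.36 and 1.62 ± 0.28 at 3, 6, 9 and 24 h. Vehicle also fell at 3 and 6 h (-0.85 and -1.03), and these 2 calls were lost in a single fit of all 45 arrays (adjusted p = 0.16 and 0.067). The 6 h call was also lost without any 1 of 5 animals, at -0.80 to -1.02.

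Other serpins of plasma did not pass. Serpina1, which encodes alpha-1-antitrypsin, was within 0.09 of vehicle at every time, and Serpinc1, antithrombin, was at -0.07, -0.10, -0.12 and -0.08. Serping1, the C1 inhibitor that binds C1r and C1s, was at -0.13 ± 0.08, -0.19 ± 0.05, -0.06 ± 0.06 and -0.12 ± 0.09. Serpina3n, an acute phase serpin of rodents, was 0.14 to 0.44 above vehicle and did not pass, but had fallen in vehicle animals by 0.76 ± 0.11 at 24 h against baseline. Serpina5, the protein C inhibitor, rose in the same comparison (0.78 ± 0.12). Serpina3c, Serpina3m and Serpina3n are close relatives, and probes could be shared between them. Serpina3c had fallen by 0.59 ± 0.08 from baseline with APAP at 24 h, a call lost without any 1 of 3 animals.

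In clade B, whose members act mainly inside cells, 1 of 11 passed against vehicle. Serpinb9, the granzyme B inhibitor, fell by 1.03 ± 0.07 at 6 h (adjusted p = 1.9e-07), with values of 8.94 to 9.13 on vehicle and 7.83 to 8.10 on APAP. It was at -0.48, -0.46 and -0.42 at 3, 9 and 24 h. Serpinb6a did not pass against vehicle, but its effects at 24 and 9 h differed (0.63, adjusted p = 0.003), which dropped to 0.53 to 0.57 without any 1 of 3 animals. Serpine2, protease nexin 1, fell by 0.70 ± 0.12 at 24 h after -0.58 ± 0.13 at 9 h. Of the 11 C1q-named genes outside the C1 complex, 0 passed in limma against vehicle at any of the 4 times, where 1, 3, 6 and 3 had an unadjusted p below 0.05, and C1qtnf1 fell against baseline with APAP at 9 h (-0.69 ± 0.09).

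**Figure D4:**
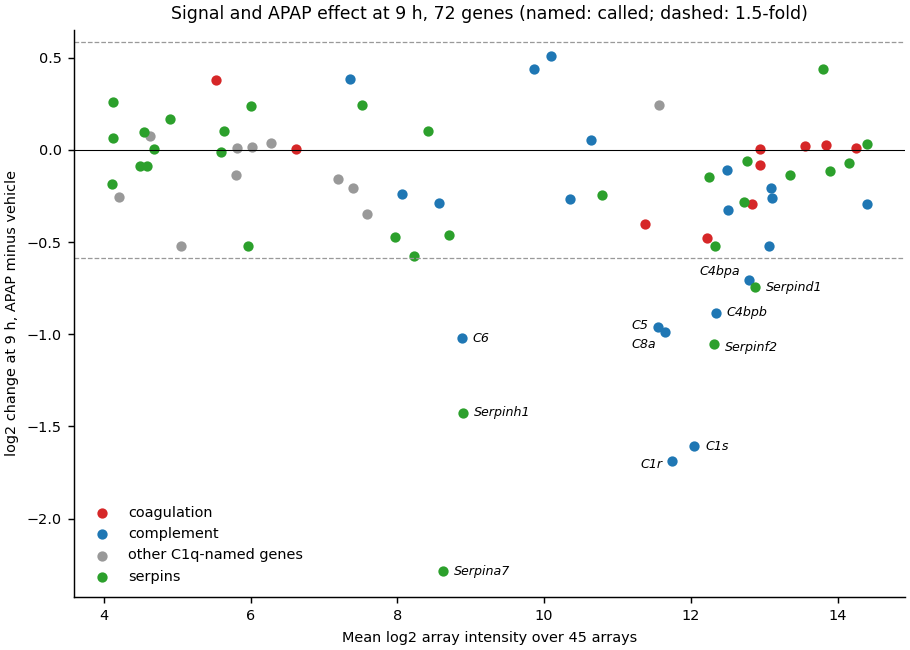
Mean log2 array intensity over 45 arrays (x axis) and log2 change at 9 h, APAP minus vehicle (y axis), for 72 of the 74 genes, coloured by group, with dashed lines at 1.5-fold and names on those that passed. The 12 genes at 13 or more on the x axis lie between -0.52 and 0.44, and the named falls lie between 8.6 and 12.9.

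Changes were also read against the intensity of the probe set. Of the 12 members with a mean log2 intensity of 13 or more, which include Fgb, Fgg, F2, C3, Serpina1 and Serpinc1, 0 passed at any of the 4 times. Of all 116 genes in that range, 8.62% passed at 9 h, against 34.2% of the 2595 genes from 9 to 12 and 26.3% of the 194 genes from 12 to 13. The members from 12 to 13 had 6 of 16 lower at 9 h, and those from 9 to 12 had 3 of 10. The table ends at 15.07, and a limit of the signal at the top of the scale was not tested. At the other end, 18 members had a mean under 6, among them 7 clade B and 5 C1q-named genes. At 9 h 1 of the 18 passed, and 3.94% of all 3502 genes in that range did. The ranges of intensity were chosen after the levels were seen.

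Each arm was also set against baseline. Vehicle animals differ from that fasted group in gavage, in time and, by the study's account, in food given again after the fast, and these cannot be told apart. The comparisons shared the same 5 baseline arrays. With vehicle, 2 members passed at 3 h (both lower, 3.55% of all genes passing), 3 at 6 h (1 higher and 2 lower, 5.02%), 3 at 9 h (2 higher and 1 lower, 6.4%) and 6 at 24 h (2 higher and 4 lower, 6.55%). With APAP, 2 passed at 3 h (1 higher and 1 lower, 3.83%), 3 at 6 h (all lower, 10.7%), 13 at 9 h (1 higher and 12 lower, 15%) and 7 at 24 h (all lower, 8.43%). Centred on ribosomal protein genes, the split was 0 higher and 2 lower for vehicle at 9 h and 1 and 2 for APAP at 3 h, and cyclic loess gave 1 and 1 for vehicle at 9 h. With no fold threshold, 14, 14, 17 and 20 members had an adjusted p below 0.05 with vehicle (22.3%, 26.2%, 28.2% and 25.5% of all genes), and 21, 33, 39 and 28 with APAP (19.7%, 38.5%, 43.1% and 28%). C1r rose with vehicle at 9 h (0.68 ± 0.20), lost without any 1 of 3 animals, and fell with APAP by 1.01 ± 0.20. At 9 h C1r, C1s, C4bpa, C5, C8a, Serpina7 and Serpinh1 were among those that fell against both vehicle and baseline, and at 24 h Serpina6 and Serpine2 did. C4bpb, C6, Serpind1 and Serpinf2, low against vehicle at 6 and 9 h, did not pass against baseline in the APAP arm, at -0.28 to -0.53. Cyclic loess normalisation took C1s at 6 h and C4bpa at 9 h under the threshold against baseline (-0.57 and -0.48).

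**Figure D5:**
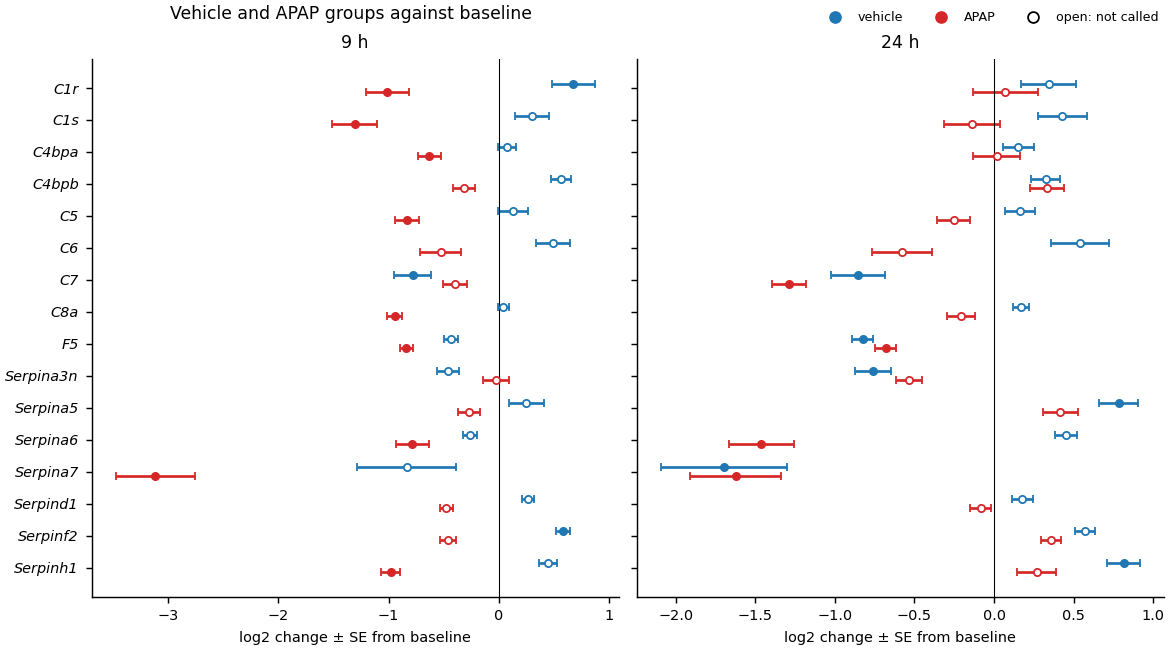
Log2 change from baseline with its SE (x axis, a separate scale in each panel) for 16 genes (rows) at 9 h (left) and 24 h (right), blue for vehicle and red for APAP, filled where the change passed and open where it did not. At 9 h C6, C4bpb, Serpinf2 and Serpind1 have vehicle points to the right of 0 and open APAP points to the left, and Serpina7 is the farthest to the left at -3.12.

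The time courses were compared as differences of the APAP effect between neighbouring times. From 3 to 6 h, 4 members differed, all with a lower effect at the later time (6.9% of all genes differed), from 6 to 9 h 2 did, both lower (3.13%), and from 9 to 24 h 12 did, 8 higher and 4 lower (16.4%). Cyclic loess gave 7 higher and 6 lower for the last step. With no fold threshold 12, 7 and 25 members differed (19.5%, 8.83% and 32.2% of all genes). The 8 that were higher at 24 h than at 9 h were C1r, C1s, C4bpb, C8a, Serpina7, Serpinb6a, Serpinf2 and Serpinh1. The Serpinf2 difference was 0.84 and that of C4bpb was 0.89 (adjusted p = 3.9e-07 and 3.9e-06). Serpina6, C7 and C1qc were among the 4 that were lower.

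Genes of other roles in the same pathways came from lists that were written with earlier results of these data known. Among 5 measured genes of the lectin pathway, the third way into complement, 2 were lower at 9 h, Mbl1 (-0.79 ± 0.09) and Masp1 (-0.61 ± 0.06), and 0 passed at 3, 6 and 24 h, where 3, 4 and 4 had an unadjusted p below 0.05 in limma. Among 4 genes of the vitamin K cycle, which clotting factors need for their gamma-carboxylation, Ggcx (-0.74 ± 0.10) and Vkorc1 (-0.73 ± 0.06) were lower at 9 h, and Vkorc1 was lower at 24 h while Nqo1 was higher at 6 and 24 h. Of 4 kinin and contact system genes, Klkb1, plasma prekallikrein, was lower at 9 h (-1.32 ± 0.20).

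The fibrinolysis genes that passed were higher. Of 9 fibrinolysis genes, Plaur, the urokinase receptor, was higher at 6 h (1.12 ± 0.12) and 9 h (2.39 ± 0.18), S100a10 at 9 h (1.54 ± 0.11) and 24 h (2.35 ± 0.21), and Anxa2 at 24 h (2.17 ± 0.27), and 0 passed as lower. The medians of the 9 genes were -0.13, -0.17, 0.14 and -0.03 at 3, 6, 9 and 24 h. In limma, 4, 6, 5 and 3 of them had an unadjusted p below 0.05. S100a10 and Anxa2 form a receptor for plasminogen. Of 5 measured neutrophil and monocyte markers at 9 h, S100a8 was higher (0.90 ± 0.34, adjusted p = 0.048 in limma) and 4 did not pass, with S100a9 at 1.23 ± 0.57. The mean of that list ran from 5.29 to 5.62 with vehicle and from 5.36 to 6.63 with APAP at 9 h, and from 5.32 to 5.42 and 5.15 to 5.38 at 6 h. Those cells also make Plaur, and their part in its values was not tested. Of 7 anticoagulant pathway genes, Procr (1.63 ± 0.45) and Thbd (1.04 ± 0.27), the receptor and the cofactor of protein C activation, were higher at 9 h, and Gas6 was lower at 6 h. The median of the 7 genes at 9 h was -0.38, below vehicle, and all 7 had an unadjusted p below 0.05 in limma. Of all genes 46.3% had even an adjusted p below 0.05 in limma at that time. Among 4 genes listed as initiators and cofactors, Pf4 was higher at 9 h (1.24 ± 0.455, adjusted p = 0.042 in limma). Ggcx, which stands in that list too, was lower. Pf4 is also 1 of 4 measured platelet markers. The others did not pass at 9 h, with Gp9 at -0.44, Itga2b at -0.39 and Ppbp at -0.12. The part of platelets in the Pf4 value was not tested.

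Few complement receptors and regulators passed. Of 7 receptors Cd93 was higher at 9 h (0.74), of 5 membrane regulators 0 passed in limma at any of the 4 times (0, 1, 2 and 2 with an unadjusted p below 0.05), and of 5 secreted regulators Clu was higher at 9 and 24 h (0.71 and 0.67) and 1 other was lower at 24 h. Of 14 acute phase genes 0 passed in limma at 3, 6 or 9 h, with medians of -0.04, -0.03 and -0.02 and 1, 2 and 4 at an unadjusted p below 0.05, and Lbp was higher at 24 h (0.73). That list also holds Alb, Ttr and Tf of the hepatocyte markers, and its medians do not separate them from the other genes. Of 11 hepatocyte transcription factors, 1 was higher and 4 lower at 3 h, with Cebpb at 1.57 ± 0.07, Foxa2 at -1.55 ± 0.12 and Onecut1 at -1.54 ± 0.18. At 6 and 9 h 2 were higher and 2 lower, among them Nr1h4 at -1.66 ± 0.10 at 9 h, and 0 passed at 24 h, where 3 had an unadjusted p below 0.05. Of 5 endothelial markers, 2 were lower at 9 h (Kdr and Tek), and the list mean ran from 8.36 to 8.56 with vehicle and from 7.83 to 8.22 with APAP. Thbd, Procr and Cd93 are also made by endothelial cells, and the part of that cell type in their values was not tested.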

How the data were processed

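Liver RNA of 45 rats was measured on 1-colour Affymetrix arrays, 1 array per animal. The authors processed the scans with affy 1.64.0 in R 3.6.1, using RMA (background correction, quantile normalisation and probe set summary) and BrainArray probe set definitions, and the deposited values are log2 intensities for 13877 genes. Animals of a group are separate rats. RMA shares 1 distribution among arrays, so changes are relative to the other genes. Gene names came from a deposited sheet, whose 45 value columns carry codes that the labels do not explain and were not used.

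Members and lists were chosen, and the naming rule written, with earlier results of these data known. The rule named a panel of 22 measured genes, members that passed with groups that did not overlap, and up to 3 members of each other list, and printed each animal's value for the largest changes. Some other animals' values were added after they were seen. A few genes are included in the counts but are not reported here. The test was limma's moderated test (version 3.58.1, R 4.3.3, lmFit and eBayes with default settings) on the 10 arrays of the groups compared, or on 20 arrays for differences between times, with Benjamini-Hochberg adjustment over all genes. On simulated data with 13877 genes in each of 15 comparisons, 33 to 47 of 50 genes were recovered at 1.6-fold and 46 to 50 at 2-fold, with at most 4 false calls. The simulation drew normal noise for each gene independently and changed fewer genes than passed in any real comparison. Its recovery and false calls are therefore not error rates of the real comparisons. Depth does not apply to arrays, and their number limits the precision. Alternatives were 1 fit of 45 arrays, a trended and robust empirical Bayes fit, cyclic loess, centring on 18 ribosomal protein genes, leaving out the dimmest 25% of genes, other thresholds, a replicate block and leaving out each animal. Scan dates are not given in the sources used here. Promoter sequences are from RefSeq (GRCr8).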

Additional observations from a re-analysis of the deposited data

Results flagged for a closer look

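In 81 groups of 5 animals (9 genes whose single animals are printed, in 9 groups), 5 held an animal far from the other 4, and chance alone flags about 1 group in 20. F10 at baseline had 1 animal at 12.32 with the others at 12.44 to 12.47. C1s at baseline had 1 animal at 11.61 with the others at 12.37 to 12.55. C6 had 1 vehicle animal at 9.05 at 3 h, above 8.80 to 8.87, and 1 vehicle animal at 8.94 at 9 h, below 9.37 to 9.48. Serpina6 had 1 vehicle animal at 12.27 at 6 h, below 12.53 to 12.62.

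The APAP effect differed between neighbouring times, by a test of the difference itself, in these members. From 3 to 6 h the differences were -0.87 for C1r, -0.89 for C1s and -1.20 for C6. From 6 to 9 h they were -0.80 for C1r and -0.82 for C1s. From 9 to 24 h they were 1.42 for C1r, 1.04 for C1s, 0.89 for C4bpb, 0.61 for C8a, 2.36 for Serpina7, 0.63 for Serpinb6a, 0.84 for Serpinf2 and 0.88 for Serpinh1, and -0.66 for C1qc, -0.82 for C7 and -1.40 for Serpina6.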

How the results depend on the processing

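Of 1721 pairs of a called member and an alternative setting, 1605 kept their direction and their call, 116 kept the direction only and 0 reversed. The settings with no fold threshold and with an adjusted p under 0.01 reuse the main fit. Neither could reverse a direction, and the first could not lose a call. Most other settings leave out 1 animal and share nearly all arrays with the main fit, so the tally is no measure of independent support. The counts of members called moved by more than 1.5 times as follows. Without a fold threshold they were 10, 32, 41 and 20 for APAP against vehicle at 3, 6, 9 and 24 h, 14, 14, 17 and 20 for vehicle against baseline, 21, 33, 39 and 28 for APAP against baseline, and 12, 7 and 25 for the differences from 3 to 6, 6 to 9 and 9 to 24 h. Centring on ribosomal protein genes, which moved the median of all genes from -0.03 to -0.17 at 9 h and from 0.01 to -0.23 at 24 h against vehicle, gave 20 and 15 at those times, 12, 24 and 23 for APAP against baseline at 6, 9 and 24 h, and 4 from 6 to 9 h. Changes of members are therefore relative to the other genes. One fit of 45 arrays gave 1 for vehicle at 3 h. An adjusted p under 0.01 gave 1 for vehicle at 3 and 6 h, 1 for APAP at 3 h against baseline and 0 from 6 to 9 h. Leaving out the dimmest genes, 18 members among them, gave 1 for APAP at 3 h against baseline. The cause of these shifts was not tested.

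Leaving out 1 animal gave 3 to 3, 9 to 10, 13 to 15 and 4 to 6 calls for APAP against vehicle, 2 to 3, 2 to 4, 1 to 5 and 6 to 7 for vehicle against baseline, 2 to 2, 3 to 6, 11 to 14 and 5 to 10 for APAP against baseline, and 3 to 4, 1 to 3 and 10 to 13 for the differences between times. Deviations of same-numbered APAP and vehicle animals of a time correlated at -0.23 to 0.23, with 5 of 20 pairs over 0.1. Differently numbered animals were not compared, so these values do not settle whether the numbers pair the samples. With the number as a replicate block the counts were 3, 9, 13 and 4 against vehicle, 2, 2, 3 and 6 for vehicle against baseline, 2, 3, 13 and 7 for APAP against baseline, and 3, 2 and 12 between times. Of 71 uncalled values of the panel against vehicle, 32 changed sign under at least 1 alternative. Their size was at most 0.18 in the main fit and at most 0.26 after the change of sign. With a fold threshold, 4 gained a call, all of them with centring on ribosomal protein genes: F10 and C9 at 9 h (-0.62 and -0.66) and C5 and Serpinh1 at 24 h (-0.65 and -0.78). Serpinh1 at 24 h also passed without any 1 of 3 animals (-0.61 to -0.64).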
